A study of Mus musculus with 4 samples.

Results

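Genes for 10 proteins were followed on microarrays of mouse hearts after pressure overload. The proteins sit at the Z-disc, on titin or at the intercalated disc between muscle cells. They are known as parts of how the heart muscle cell senses and answers stretch. The genes were Ankrd1, Ankrd2, Ankrd23, Xirp1, Xirp2, Csrp3, Nrap, Myoz2, Tcap and Fhl1. They were chosen by name, with earlier results of these data known. Their probes were found by the RefSeq transcript given for each probe on the array. All 10 were found, on 12 of 55681 probes, among 21762 genes that could be matched to a probe. For 8 genes there was 1 probe, and Ankrd23 and Nrap had 2. All 12 probes were well above background on all 4 arrays, so no member was lost to a filter on low signal.

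The study screened hearts of male mice after transverse aortic constriction (TAC), an operation that narrows the aorta and makes the left ventricle pump against high pressure, or after sham surgery. The 4 groups were sham and TAC hearts taken 2 weeks after surgery, from mice labelled as 10 weeks old, and sham and TAC hearts taken 8 weeks after surgery, from mice labelled as 16 weeks old. These labels place surgery at a younger age than the study states for its screen, and the ages are therefore not settled. The study obtained C57BL/6J mice, and the labels name no transgene, deletion or drug. Total RNA from several mice was mixed before labelling, so each group was 1 array of 1 pool. The spread between mice was therefore not measured, and no difference below has a p-value or a replicate check. The earlier time was chosen by the study for the hypertrophic response and the later for heart failure.

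The sarcomere is the contractile unit of muscle, and the Z-disc is the wall that joins neighboring sarcomeres. Thin filaments are anchored there, and so is titin, the giant spring protein that runs from the Z-disc to the M-band at the center of the sarcomere. Proteins bound at the Z-disc and along titin hold this lattice together, and several of them can also enter the nucleus, which links mechanical load to gene expression. Ankrd1 (also called CARP) is widely used as a marker of the overloaded heart.

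Levels are given as the signal of a probe divided by the 75th percentile of its array, which was 206 to 249 signal units. A level can be compared between arrays but not between genes, since probes differ in how strongly they bind. Changes are log2(TAC/sham) of these levels. A gene was called up or down when it differed by more than 2-fold and the brighter array was well above background. Between 54.7 and 58.5% of probes were well above background on each array, and no probe was saturated. The labels were checked on Nppa, Nppb, Myh7 and Acta1, the classical genes of the overloaded ventricle, and 4 of 4 were up at both times, with median changes of 2.28 and 3.03. The cardiomyocyte markers Myh6, Tnnt2, Tnni3, Actc1, Myl2, Myl3, Ryr2 and Pln were well above background on all 4 arrays, and 0 of 8 were called.

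The promoters of the members up at both times are shown here with that of Myoz2, a member that was not called, so that the DNA in front of both can be read beside their values. The 250 bases before the RefSeq start site of the transcript each probe is named for are given 5′ to 3′ on the strand of the gene, in build GRCm38.p6. Capitals mark the TATA box (TATAAA) in Ankrd2, the MCAT element (CATTCC, or GGAATG read from the other strand) in Ankrd1 and Ankrd23, and the MEF2 site in Xirp2 and Myoz2. The MCAT element is bound by TEAD factors and MEF2 sites by MEF2 factors, both known regulators of muscle genes.
Ankrd1, chr19:36119845-36120094 (minus strand): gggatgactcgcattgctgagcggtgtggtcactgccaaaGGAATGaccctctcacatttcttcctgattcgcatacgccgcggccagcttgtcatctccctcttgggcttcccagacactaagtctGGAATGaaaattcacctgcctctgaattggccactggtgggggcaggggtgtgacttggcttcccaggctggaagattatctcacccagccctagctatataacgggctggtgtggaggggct
Ankrd2, chr19:42035777-42036026 (plus strand): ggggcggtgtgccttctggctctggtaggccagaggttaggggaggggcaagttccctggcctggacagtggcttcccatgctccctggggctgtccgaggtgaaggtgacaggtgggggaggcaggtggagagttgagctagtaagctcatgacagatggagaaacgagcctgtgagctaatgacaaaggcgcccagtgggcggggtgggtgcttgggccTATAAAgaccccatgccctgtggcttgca
Ankrd23, chr1:36535740-36535989 (minus strand): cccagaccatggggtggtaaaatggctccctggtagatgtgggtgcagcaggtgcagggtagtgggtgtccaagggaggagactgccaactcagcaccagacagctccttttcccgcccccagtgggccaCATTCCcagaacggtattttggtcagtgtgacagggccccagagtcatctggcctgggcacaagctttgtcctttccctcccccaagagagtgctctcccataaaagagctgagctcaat
Xirp2, chr2:67445752-67446001 (plus strand): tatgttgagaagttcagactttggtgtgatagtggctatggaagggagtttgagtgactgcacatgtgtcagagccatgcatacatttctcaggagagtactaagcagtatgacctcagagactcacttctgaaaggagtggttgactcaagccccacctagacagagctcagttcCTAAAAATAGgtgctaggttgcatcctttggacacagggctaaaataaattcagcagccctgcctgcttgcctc
Myoz2, chr3:123034988-123035237 (minus strand): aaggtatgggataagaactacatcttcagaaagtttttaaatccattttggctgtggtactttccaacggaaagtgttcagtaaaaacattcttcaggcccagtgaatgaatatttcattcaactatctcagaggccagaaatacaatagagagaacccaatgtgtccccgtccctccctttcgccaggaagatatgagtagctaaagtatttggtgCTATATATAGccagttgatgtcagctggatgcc

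RefSeq windows were given for 8 of the 10 genes, 11 windows in all, and motifs were searched on both strands. Xirp1 and Tcap had none. The MCAT element stood in 2 of the 11 windows and in 12.6% of 32851 mouse promoter windows of the same length. The Ankrd1 window held it at 2 places, with the first base at -210 and -123, counted from the start site, and the Ankrd23 window at 1 (-120). A MEF2 site was found in 2 of the 11 windows, at -74 in Xirp2 and -33 in Myoz2, against 2.92% of all windows. Of these 2 genes, Xirp2 was called and Myoz2 was not. Csrp3 and Nrap were not called by their brightest probes either, and the windows of their probe transcripts held no MCAT or MEF2 match. A link between any site and the changes was not tested. The TATA box was found for Ankrd2 at -29 and for Fhl1 at -156 (12.4% of all windows), and a CArG box, the site of SRF, for Fhl1 at -102 (1.47%). Neither Fhl1 window belonged to the transcript its probe is named for. GATA sites (AGATAA and TGATAA and AGATAG and TGATAG) were found in 5 of the 11 windows (26.5% of all windows). E-boxes (CANNTG) were found in 10 of the 11 (66.2%). These are matches of letters and say nothing of binding in these hearts.

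At 2 weeks after TAC, 4 of the 10 genes were more than 2-fold higher than in sham hearts, and 5 of 10 were at 8 weeks. Of all 14299 genes measured on all 4 arrays, 0.888% were up by the same rule at 2 weeks and 1.73% at 8 weeks. Since the members were chosen with earlier results known, these shares stand beside their counts as descriptions. The 4 genes up at 2 weeks, Ankrd1, Ankrd2, Ankrd23 and Xirp2, were also up at 8 weeks, and Fhl1 was added there. Over all genes, 0.497% were up at both times. None of the 10 was down at either time, where 0.469 and 0.832% of all genes were. The median change of the members was 0.62 at 2 weeks and 1.08 at 8 weeks, and the median over all genes was -0.01 at both. RNA came from whole hearts, and for a single gene more RNA per muscle cell and more muscle cells cannot be told apart. The 8 cardiomyocyte markers were not higher in TAC hearts as a list, with medians of -0.17 and -0.18, and at 8 weeks their changes ran from -0.63 to -0.12.

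**Figure D1:**
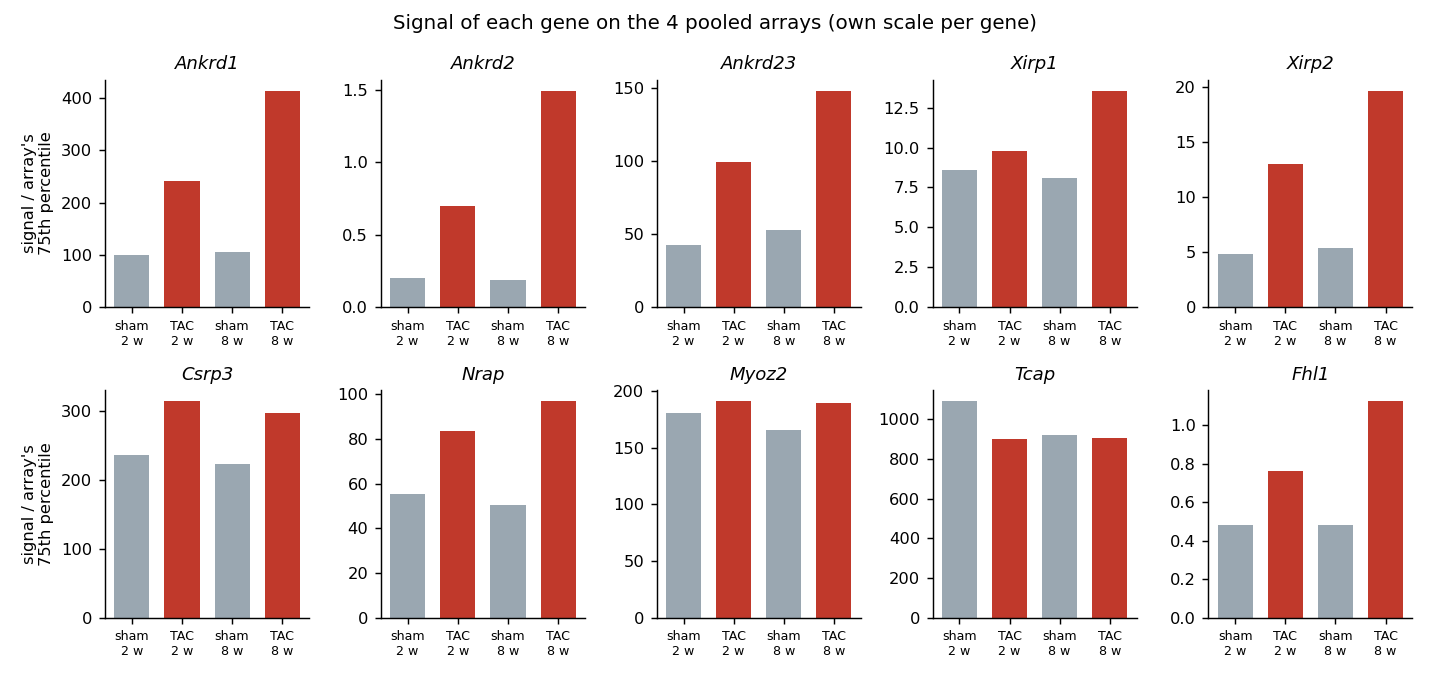
Signal of each gene on the 4 arrays, as a multiple of the array's 75th percentile, with a separate scale for each gene (bars start at 0; gray, sham; red, TAC; w, weeks after surgery; 1 pooled array per bar, so no error bars). Both TAC bars stand above both sham bars for 9 genes, and Tcap is highest on the sham array at 2 weeks (1091).

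The ankyrin repeat proteins Ankrd1, Ankrd2 and Ankrd23 are a family that binds the spring region of titin and is also found in the nucleus, and all 3 genes were up at both times. Ankrd2 is better known from slow skeletal muscle. Its level was 0.201 in sham and 0.697 in TAC hearts at 2 weeks, and 0.185 in sham and 1.496 in TAC hearts at 8 weeks. Both sham arrays were low and close to each other, and the TAC array at 8 weeks was the highest. The change was 1.79 (3.47-fold) at 2 weeks and 3.02 (8.10-fold) at 8 weeks, and it ranked 22 of 14299 genes at 2 weeks and 9 at 8 weeks. These changes were the greatest of the 10 as processed here, but with normexp background correction and an added constant they were 0.82 and 1.88, behind Xirp2 (1.39 and 1.89) and Ankrd1 (1.26 and 2.04) at both times, and behind Ankrd23 (1.22) at 2 weeks.

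Ankrd1 had a level of 99.1 in sham and 241 in TAC hearts at 2 weeks, and of 104.5 in sham and 415 in TAC hearts at 8 weeks. As with Ankrd2, the sham arrays lay close together and both TAC arrays stood above them, the later one highest. The change was 1.28 (2.44-fold) and then 1.99 (3.97-fold), rank 60 and 37 of all genes. Ankrd23 had levels of 42.5 in sham and 99.5 in TAC hearts at 2 weeks, and 52.6 and 148 at 8 weeks. Its change was 1.23 at 2 weeks and 1.49 at 8 weeks. The other Ankrd23 probe was dimmer but moved alike, by 1.20 and 1.47. The sham level of Ankrd23 was itself 0.31 higher at 8 weeks, the largest sham difference of the 10 genes.

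Xirp1 and Xirp2 encode the Xin proteins, which bind actin filaments at the intercalated disc, where heart muscle cells join end to end. Xirp2 levels were 4.81 in sham and 13.0 in TAC hearts at 2 weeks, and 5.34 in sham and 19.7 in TAC hearts at 8 weeks. Its change of 1.43 (2.70-fold) at 2 weeks and 1.88 (3.69-fold) at 8 weeks was close to that of Ankrd1. Xirp1 levels were 8.61 in sham and 9.76 in TAC hearts at 2 weeks, and 8.08 and 13.6 at 8 weeks. The sham arrays and the TAC array at 2 weeks lay near each other, and the TAC array at 8 weeks stood above them. The change was 0.18 at 2 weeks and 0.75 (1.68-fold) at 8 weeks, and Xirp1 was not called at either time.

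Nrap is a scaffold of myofibril assembly at the ends of the myofibril. Its levels were 55.3 in sham and 83.4 in TAC hearts at 2 weeks, and 50.3 and 96.8 at 8 weeks. Both TAC arrays were above both sham arrays. The change was 0.59 (1.51-fold) and then 0.94, which at 1.93-fold lay just under the limit for a call. Its other probe gave 0.64 at 2 weeks and 1.02 (2.03-fold) at 8 weeks, just above the limit, so whether Nrap was called at 8 weeks depended on the probe.

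Csrp3 and Fhl1 encode LIM domain proteins, and only Fhl1 was called, at 8 weeks. Csrp3, also called muscle LIM protein, is a Z-disc protein whose loss leads to dilated hearts in mice. Its levels were 236 in sham and 314 in TAC hearts at 2 weeks, and 223 and 298 at 8 weeks. TAC arrays were higher at both times and the change was the same, 0.41 (1.33-fold) at each. Fhl1 binds titin and is known to rise in hypertrophied hearts. Its levels were 0.484 in sham and 0.760 in TAC hearts at 2 weeks, and 0.482 and 1.12 at 8 weeks. The sham arrays were nearly equal, and the change was 0.65 (1.57-fold) at 2 weeks and 1.22 (2.33-fold) at 8 weeks. The call at 8 weeks was lost with normexp and its added constant (0.81). The only Fhl1 probe is named for 1 of 4 RefSeq transcripts of the gene, and its level need not stand for the others.

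Myoz2, or calsarcin, ties the phosphatase calcineurin to the Z-disc, and Tcap, or telethonin, caps the end of titin there. Myoz2 levels were 181 in sham and 191 in TAC hearts at 2 weeks, and 166 and 189 at 8 weeks, and its changes were 0.08 and 0.19. Tcap levels were 1091 in sham and 902 in TAC hearts at 2 weeks, and 923 and 906 at 8 weeks, and its changes were -0.27 and -0.03. For Tcap 3 arrays were nearly level and the sham array at 2 weeks stood above them. The sign of its change at 8 weeks turned with the scaling, to 0.06 when arrays were scaled by their median. Both genes, and Csrp3 too, stayed within the range that the middle of all genes spanned. From the 5th to the 95th percentile this range was -0.43 to 0.53 at 2 weeks and -0.52 to 0.60 at 8 weeks.

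**Figure D2:**
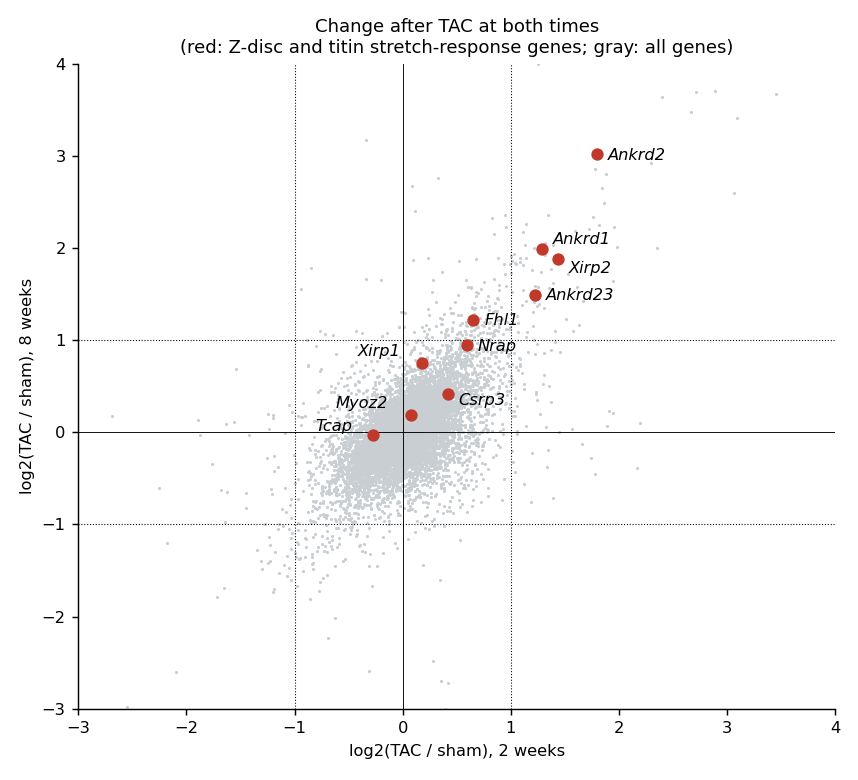
Log2(TAC/sham) at 2 weeks (horizontal axis) against 8 weeks (vertical axis), with 1 point per gene, for the 10 genes (red) and all 14299 genes measured on all 4 arrays (gray; 7 lie outside the axes). Dotted lines mark 2-fold. Ankrd1, Ankrd2, Ankrd23 and Xirp2 lie beyond 2-fold at both times, Fhl1 at 8 weeks, and Csrp3, Myoz2 and Tcap lie within the cloud of all genes.

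Precision was limited to what a pair of arrays can give. The scanning software put the error of each member signal at 10.0 to 12.9%, which comes to 0.20 on a log2 change for Ankrd1 and 0.24 for Ankrd2. Among 296 probes printed as several spots, the SD of a change from 1 spot was 0.13 at both times. It was 0.25 at 2 weeks and 0.24 at 8 weeks for probes as dim in sham hearts as Ankrd2. These figures cover the array only and leave out differences between mice and pools. In order of change at 8 weeks, Ankrd2 came ahead of Ankrd1 by 1.03, an order that turned with normexp and its added constant. Ankrd1 came ahead of Xirp2 by 0.10, which is within the software error. Ankrd23 and Fhl1 were 0.27 apart, Fhl1 and Nrap 0.28, and Nrap and Xirp1 0.20. Xirp1 and Csrp3 were 0.33 apart, Csrp3 and Myoz2 0.23, and Myoz2 and Tcap 0.22. A gap carries the errors of 2 changes, each about 0.20, so these steps are not resolved. At 2 weeks Xirp2, Ankrd1 and Ankrd23 were likewise 0.15 and 0.06 apart.

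The pair of sham arrays shows how far pools lay apart without TAC, although they also differed in age. Between the sham arrays the members differed by -0.24 to 0.31 and 0 of 10 passed 2-fold in either direction, beside 0.322% of all genes up and 0.217% down at 8 weeks. Between the TAC arrays, 8 of 10 members were higher at 8 weeks than at 2 weeks, Tcap among them by only 0.006. The median difference over all 10 was 0.52, and 54.7% of all genes were higher. Only Ankrd2 passed 2-fold there (1.10, or 2.15-fold), as 0.573% of all genes did, and none was down (0.483%). The change at 8 weeks exceeded that at 2 weeks for 9 of 10 members, by up to 1.22 for Ankrd2, with a median difference of 0.40 over all 10. Csrp3 was the exception with -0.00, and 51.2% of all genes had the greater change at 8 weeks. All 4 arrays were on 1 slide and were scanned together, but by their barcodes the arrays of each time lay in a row of their own, so time and slide row cannot be told apart.

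Genes of the same structures were counted by the same rule. Of 10 close relatives (other LIM, myozenin and nebulin family genes), 0 were called at either time and the medians were 0.03 and 0.11. The largest change among them at 8 weeks was that of Neb, nebulin, with 0.98, after 0.01 at 2 weeks. Most of it came from the sham array at 8 weeks, where Neb differed by -0.65 from the sham array at 2 weeks. Between the TAC arrays Neb differed by 0.32. Of 22 other Z-disc genes, 20 were measured on all arrays, with medians of 0.15 and 0.28, and 17 of these 20 had the greater change at 8 weeks. Myot, the Z-disc actin cross-linker myotilin, was the only gene of this list called up, at 8 weeks, with 0.88 at 2 weeks and 1.90 at 8 weeks. Smpx passed the rule for down at 8 weeks but was well above background on 1 array only, the sham array at 8 weeks, where it was at least 1.91-fold brighter than on the TAC array.

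Of 15 genes of titin and the M-band, 0 were called and the medians were -0.04 and 0.11. Ttn itself changed by 0.02 and 0.08, and the largest change at 8 weeks was that of Myom3, an M-band protein, with 0.11 at 2 weeks and 0.90 at 8 weeks. Of 22 other genes of the costamere and intercalated disc, 0 were called, with medians of 0.07 and -0.01. Among these 22, Dsg2, a desmosomal cadherin, had the largest change at 8 weeks, with -0.49 and -0.68. Xirp1 and Xirp2, also of the intercalated disc, were counted with the members. The medians of these lists stand beside the 0.62 and 1.08 of the members as descriptions, since the lists were chosen with earlier results known.

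**Figure D3:**
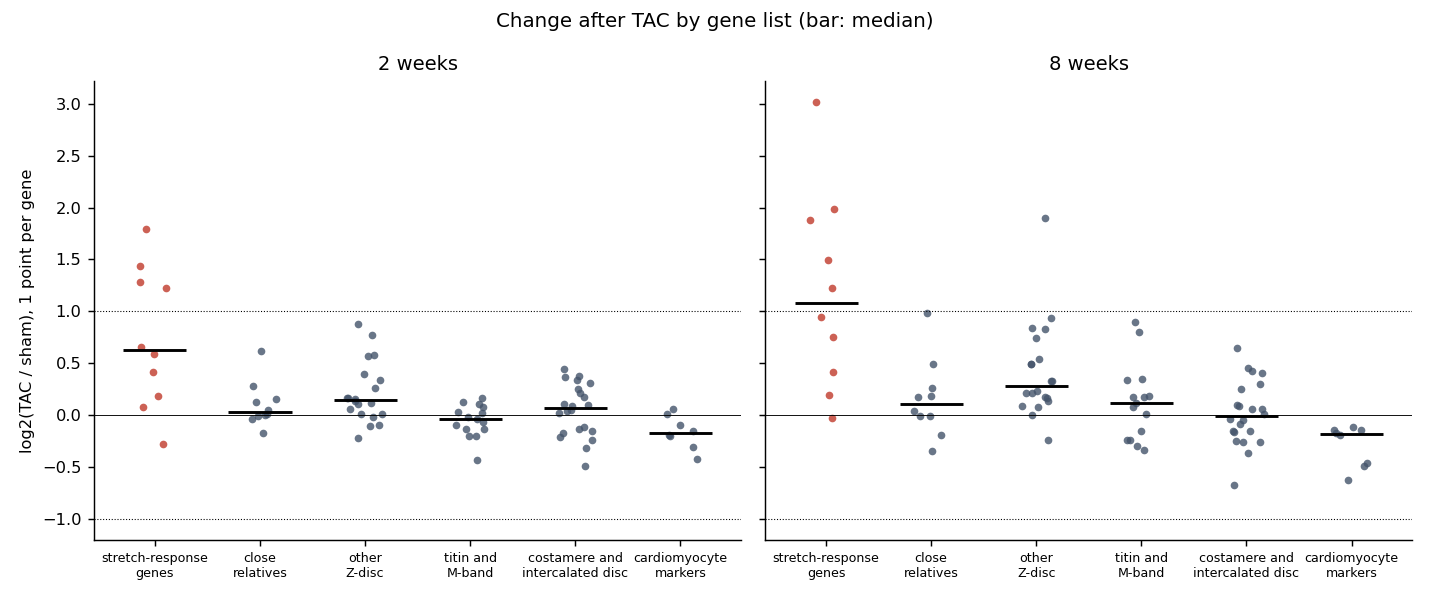
Log2(TAC/sham) at 2 weeks (left) and 8 weeks (right) for the 10 genes (red) and for lists of related genes (blue), with 1 point per gene measured on all 4 arrays, spread sideways for view; bars are medians and dotted lines mark 2-fold. At 8 weeks 5 red points pass 2-fold and Myot is the only blue point that does.

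Markers of other cells moved as follows. Ankrd2 is a skeletal muscle gene too, and of 10 skeletal muscle markers 5 were not well above background on any array (Actn3, Myh1, Myh2, Myh4 and Mylpf). Their summed level was 18.5 and 18.6 in sham and 20.8 and 18.9 in TAC hearts at 2 and 8 weeks. Mybpc2, a myosin-binding protein of fast muscle, was up at both times (1.95 and 1.64) and Tnnt3 changed by 0.54 and 0.35. Tnni2 (-0.20 and -0.54), Atp2a1 (-0.49 and -0.41) and Pvalb (-0.01 and -0.46) were lower, and the median of the 5 measured markers was -0.01 at 2 weeks and -0.41 at 8 weeks. Of 6 atrial markers, Nppa and Dkk3 were up at both times and Myl7 and Sln were down at 8 weeks. Myl7 and Sln were then not well above background in TAC hearts. In sham hearts they were 3.64-fold and 2.55-fold the lowest level that was well above background on that TAC array. Between the sham arrays, Myl7 was 1.80 and Sln 0.63 higher at 8 weeks, so the sham array at 8 weeks entered these falls. Without Nppa, which the overloaded ventricle makes too, the summed level of the atrial list was 4.72 in sham and 5.64 in TAC hearts at 2 weeks, and 5.90 and 5.51 at 8 weeks. Of 7 fibroblast markers, Postn (2.29 and 2.92) was up at both times and Col1a1 at 8 weeks (1.20). The median change of the 7 was 0.895 at 2 weeks and 0.943 at 8 weeks, beside 0.62 and 1.08 for the members. Their changes ran from 0.18 to 2.29 at 2 weeks and from 0.28 to 2.92 at 8 weeks. The summed level of the 7 was 207 in sham and 287 in TAC hearts at 2 weeks and 232 and 338 at 8 weeks. The brightest probe in that sum, for Dcn, changed by only 0.18 and 0.28. The summed level of the cardiomyocyte markers was 9420 in sham and 8821 in TAC hearts at 2 weeks and 8909 and 7865 at 8 weeks. Of 6 smooth muscle, 5 endothelial and 6 leukocyte markers, 0 were called, with medians of 0.30, 0.33 and 0.30 at 2 weeks and 0.19, -0.06 and 0.31 at 8 weeks. The part of these cells in the changes of the members was not tested.

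The 5 genes whose levels over the 4 arrays lay closest to the median course of the members were Ppp1r3g, Ugt1a6b, Cd52, Nmral1 and Ackr4. Closeness was the Euclidean distance over 3 log2 differences from the sham array at 2 weeks, and it was 0.06 for Ppp1r3g and 0.10 for Ackr4. The median course of the members was 0.62 for TAC at 2 weeks, -0.08 for sham at 8 weeks and 1.01 for TAC at 8 weeks. With 4 arrays many genes can share such a course.

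**Figure D4:**
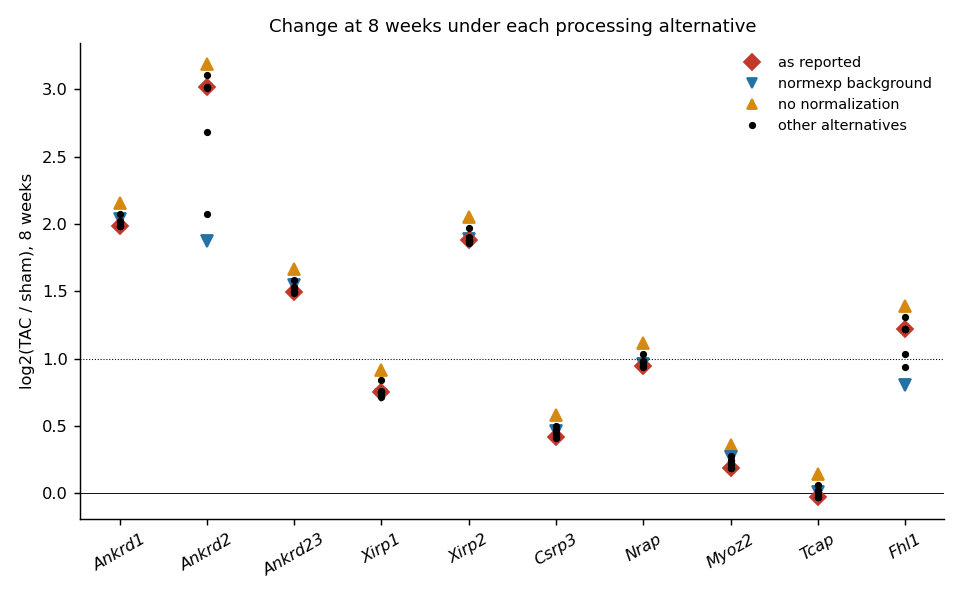
Log2(TAC/sham) at 8 weeks (vertical axis) for the 10 genes (horizontal axis) as reported (red diamonds), with normexp background correction and an added constant of 50 (blue), without normalization (orange) and under the other alternatives (black). Under normexp with the constant Ankrd2 goes from 3.02 to 1.88 and Fhl1 from 1.22 to 0.81, below the dotted 2-fold line, and the other genes move by less than the SD of repeated spots (0.13).

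The normexp alternative changes the background model and also adds a constant of 50 to every signal, while the sham signals of Ankrd2 were 41.5 and 40.8. With both, Ankrd2 changed by 0.82 at 2 weeks, no longer past 2-fold, and by 1.88 at 8 weeks, and Fhl1 changed by 0.41 and 0.81 and was not called. The steps were then taken apart, a choice made after seeing the data. With normexp and no constant, Ankrd2 changed by 1.27 and 2.69 and Fhl1 by 0.56 and 1.03, and the calls were as reported. With the constant added to the reported signal, Ankrd2 changed by 1.08 and 2.08, still past 2-fold, and Fhl1 by 0.47 and 0.93, not called. At 2 weeks Ankrd2 came behind Xirp2 (1.44 and 1.39) under each step alone. With the constant alone it also came behind Ankrd1 (1.28) and Ankrd23 (1.22) there. At 8 weeks Ankrd2 stayed ahead of the other members under each step. With the constant alone its lead over Ankrd1 (2.076 against 2.015) was within the software error. Ankrd1, Ankrd23 and Xirp2 stayed past 2-fold at both times under every alternative tried except the limit of 3-fold.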

How the data were processed

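Total RNA of the 4 pools was labelled with Cy3 and hybridized to Agilent SurePrint G3 Mouse arrays (1 color, probes placed on mm9). The authors deposited scanner files whose processed signal is an intensity, background-subtracted by Feature Extraction, version 10.7.3.1 per the file headers and 9.1 per the labels. They analyzed it in GeneSpring, with a normalization not given in the sources used here. The deposited value table of the same arrays served as an alternative. All 4 of its columns were mapped to samples.

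Control and outlier spots were left out, spots of a probe were averaged, and log2 signals were scaled by the 75th percentile of 55681 probes (Python 3.11.15, pandas 2.3.3, numpy 2.4.6). Of 32342 probes named for RefSeq or Ensembl transcripts, 29502 were matched to a gene, and the probe with the highest mean log2 signal stood for its gene. Shares of all genes are over those well above background on all 4 arrays. With 1 array per group no test was possible, and the number of arrays limits precision. Of 10 alternatives, normexp (limma 3.58.1, R 4.3.3) also added an offset of 50, and 2 more, chosen after seeing the data, separated these steps. All members were named, and from each pathway list every gene called at both times or otherwise that with the largest change at 8 weeks, and the 5 genes of nearest course. Markers of other cells, Ttn and Smpx were named after their values were seen. The members and lists were chosen with earlier results of these data known. Promoter sequences are from RefSeq.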

Additional observations from a re-analysis of the deposited data

Results flagged for a closer look

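Among the genes with the largest change in their list, the endothelial marker Egfl7 was the exception in direction: it changed by 0.42 at 2 weeks and by -0.14 at 8 weeks, a difference of -0.56 between the times. The difference was not tested, since each group was 1 array, and neither change passed 2-fold. Its -0.14 at 8 weeks only just passed the SD of repeated spots (0.13), the limit for this flag. Myl7 (0.67 and -2.49), Sln (0.265 and -1.76) and Smpx (1.84 and -1.24) also turned. These 3 genes were not well above background on all 4 arrays and were not candidates for the flag.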

How the results depend on the processing

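No paired analysis was possible because each group was 1 array, and for the same reason no replicate could be left out. No member's change past 2-fold turned its sign under the alternatives tried, and genes outside the 10 were not run under them. The median change of the members at 8 weeks, 1.08 as reported, was 1.25 without normalization between arrays and 0.88 with normexp background correction and its constant of 50. Leaving out normalization shifts every gene of a time alike. The median of all genes at 8 weeks moved with it to 0.16, so the rise to 1.25 is shared with all genes. At a limit of 3-fold, 1 gene was up at 2 weeks and 3 at 8 weeks, and at 1.5-fold 6 and 7 were. With normexp and the constant 3 genes were up at 2 weeks and 4 at 8 weeks, with normexp alone 4 and 5, and with the constant alone 4 and 4, the last pair of settings being chosen after seeing the data. Scaling by the median, or none, brought Nrap to 1.03 and 1.11 at 8 weeks and so to 6 genes up. Quantile normalization, the deposited value table, the mean over probes, outlier spots kept and the percentile over detected probes left 4 and 5 genes up. Of the single-gene values under alternatives, 179 lay within 0.13 of the reported change and 21 did not. Many of the 179 had little room to move, so their number is no measure of robustness. The deposited values of the members were nearly those reported, and the mean over probes could alter only the 2 genes with 2 probes. Another scaling factor shifts all genes of a time alike, and the 10 values moved without normalization shared such a shift. Of the others, 4 came with normexp and the constant, 3 with normexp alone and 4 with the constant alone. These were all for Ankrd2 and Fhl1, the dimmest members. Signal over background limits these 2 genes, and the spread between mice was not measured for any.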
